A study of Homo sapiens with 12 samples.

Results

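The genes described here are the SR and hnRNP splicing factors, taken as every protein-coding row of the deposited table whose symbol begins with SRSF and a digit, or with HNRNP. The rule found 39 genes of 58302, with 12 SR genes and 27 hnRNP genes, and used no measured value. RNA was sequenced from diffuse large B-cell lymphoma lines grown with or without selinexor, an inhibitor of XPO1, the receptor that carries many proteins out of the nucleus. By their labels, OCI-LY3 is of the activated B-cell type, SU-DHL6 is of the germinal centre type, and both are wild type. The 4 groups were untreated OCI-LY3, treated OCI-LY3, untreated SU-DHL6 and treated SU-DHL6, with 3 libraries each. The protocols give 300 and 100 nM selinexor and 24 and 48 h, but which library received which is not labelled, so dose and duration may differ between the lines. The series calls the libraries biological triplicates without describing the cultures, so the p-values measure the spread between these libraries.

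SR proteins bind exonic sequences through RNA recognition motifs and recruit the splicing machinery through a domain rich in arginine and serine, whose phosphorylation sets where in the cell they reside. The hnRNP proteins coat nascent transcripts, and many of them repress nearby splice sites, so the balance of both families helps to decide which exons are kept. Several of these proteins shuttle between nucleus and cytoplasm and take part in mRNA export, decay and translation. Many of their own genes hold exons whose inclusion sends the transcript to nonsense-mediated decay, which lets the protein limit its own mRNA.

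Library totals ranged from 14210200 to 16405842 counts and log2 values of replicate libraries correlated at 0.985 to 0.99. On the fourth principal component 1 library, the first of untreated SU-DHL6, lay away from the rest, at -33.6 where the others lay between -18.6 and 13.9. The B-cell markers MS4A1, CD79A, CD79B, PAX5 and CD22 were present in all 4 groups, and the lowest group mean was 134 CPM, for CD79B in untreated OCI-LY3. The germinal centre markers MME, MYBL1 and LMO2 were high in SU-DHL6 and IRF4 and CCND2 were high in OCI-LY3. Of the T-cell markers, CD3G and CD2 had no count and CD3D at most 1 count in a library, whereas CD3E in OCI-LY3 went from a mean of 0.183 CPM to 1.62 CPM with selinexor, and had 0.474 and 0.087 CPM in SU-DHL6. Of the myeloid markers, LYZ and MPO had no count, CSF1R had 0.882 and 3.83 CPM in OCI-LY3 and 0.064 and 0.26 CPM in SU-DHL6, and CD14 had 0.152 and 0.433 CPM in SU-DHL6 and none in OCI-LY3. COL1A1 was at 21.3 CPM in OCI-LY3 without and 28.5 CPM with selinexor, while COL1A2 had at most 0.158 CPM and EPCAM and KRT18 no count. The part of these markers in the responses was not tested. The CPM of these markers is the count relative to the library total, without further scaling. For the SR and hnRNP genes below, CPM is taken after TMM scaling, a correction for differences in RNA composition. The TMM factors ran from 0.865 in treated OCI-LY3 to 1.23 in treated SU-DHL6, so the scales differ.

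Of the 39 genes, 34 passed the filter on low counts, 11 of them SR and 23 hnRNP genes. HNRNPCL1, HNRNPCL2, HNRNPCL3 and HNRNPCL4 had no count in any library. That allows at most 0.211 CPM, before TMM scaling, in the shallowest one. SRSF12 was too low to test. On the deposited FPKM scale, which divides by 1 length per gene, HNRNPA1P48 and HNRNPK ranked first and second of the 39 genes in untreated cells of both lines. The implied length can exceed the locus, as it does for HNRNPU, so ranks on this scale are uncertain. HNRNPK, which binds cytosine-rich RNA, had 60.2 ± 1.18 FPKM in untreated OCI-LY3 and 74.8 ± 6.14 FPKM in untreated SU-DHL6 (mean ± SD, n = 3). SRSF6 had the highest FPKM among the SR genes, with 32.7 ± 0.494 and 45.8 ± 6.72. In CPM, however, SRSF3 lay above SRSF6 in untreated cells. The CPM were 232 ± 7.52 against 180 ± 0.942 in OCI-LY3 and 321 ± 41.7 against 239 ± 26.2 in SU-DHL6. The 39 genes together took 0.680 to 0.703% of all counts in untreated OCI-LY3 and 0.519 to 0.551% in treated OCI-LY3. In SU-DHL6 their share was 0.729 to 0.803% untreated and 0.875 to 0.913% treated. In annotation release 29 of GENCODE, all 11 tested SR genes and 14 of the 23 tested hnRNP genes (60.9%) have a transcript annotated for nonsense-mediated decay. The same held for 44.0% of 12186 protein-coding genes, and gene-level counts do not separate such transcripts from productive ones.

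Promoter windows of 300 bases, from 250 before to 50 after the annotated start, were found in RefSeq (GRCh38.p14) for 31 of the 34 tested genes. HNRNPA1, HNRNPA1P48 and SRSF2 had no entry. Each line gives the gene's identifier in the table, its locus and its window. The following 6 windows belong to the genes with the largest or the most opposed responses in the results. HNRNPH2 had the largest rise, HNRNPUL1 the largest called fall, HNRNPA2B1 opposite changes in the lines, HNRNPLL the largest difference between the untreated lines, HNRNPM a rise in SU-DHL6 and SRSF5 a rise in both lines. Capitals mark the E-box CACGTG, the CCAAT box, the ETS-type core CCGGAA and the box TATAAA, read on both strands; on the other strand the CCAAT box reads ATTGG.
HNRNPH2, ENSG00000126945, chrX:101408295-101414133, window chrX:101407972-101408271, plus strand: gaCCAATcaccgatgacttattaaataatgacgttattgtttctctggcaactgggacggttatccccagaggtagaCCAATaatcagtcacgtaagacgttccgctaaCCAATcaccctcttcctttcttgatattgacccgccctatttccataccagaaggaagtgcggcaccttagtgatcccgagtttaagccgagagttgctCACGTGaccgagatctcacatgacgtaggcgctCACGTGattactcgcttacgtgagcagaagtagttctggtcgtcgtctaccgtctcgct
HNRNPUL1, ENSG00000105323, chr19:41262496-41307598, window chr19:41262307-41262606, plus strand: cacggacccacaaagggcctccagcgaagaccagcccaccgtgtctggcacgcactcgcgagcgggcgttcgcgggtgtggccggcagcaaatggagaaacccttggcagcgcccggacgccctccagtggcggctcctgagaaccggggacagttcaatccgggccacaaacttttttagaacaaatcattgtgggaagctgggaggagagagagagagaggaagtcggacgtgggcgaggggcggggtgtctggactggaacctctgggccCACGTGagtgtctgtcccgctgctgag
HNRNPA2B1, ENSG00000122566, chr7:26189927-26201529, window chr7:26200697-26200996, minus strand: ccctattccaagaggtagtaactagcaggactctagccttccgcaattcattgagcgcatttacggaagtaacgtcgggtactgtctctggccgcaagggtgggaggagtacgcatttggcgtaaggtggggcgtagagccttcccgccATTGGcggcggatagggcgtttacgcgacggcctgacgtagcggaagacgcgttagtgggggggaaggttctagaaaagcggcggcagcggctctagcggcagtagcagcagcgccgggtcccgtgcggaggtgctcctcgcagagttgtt
HNRNPLL, ENSG00000143889, chr2:38561978-38603586, window chr2:38602879-38603178, minus strand: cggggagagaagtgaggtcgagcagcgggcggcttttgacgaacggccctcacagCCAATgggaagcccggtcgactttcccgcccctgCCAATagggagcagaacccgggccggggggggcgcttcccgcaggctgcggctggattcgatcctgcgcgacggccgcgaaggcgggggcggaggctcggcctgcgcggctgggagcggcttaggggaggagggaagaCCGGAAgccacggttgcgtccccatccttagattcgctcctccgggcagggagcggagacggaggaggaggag
HNRNPM, ENSG00000099783, chr19:8444767-8489114, window chr19:8444725-8445024, plus strand: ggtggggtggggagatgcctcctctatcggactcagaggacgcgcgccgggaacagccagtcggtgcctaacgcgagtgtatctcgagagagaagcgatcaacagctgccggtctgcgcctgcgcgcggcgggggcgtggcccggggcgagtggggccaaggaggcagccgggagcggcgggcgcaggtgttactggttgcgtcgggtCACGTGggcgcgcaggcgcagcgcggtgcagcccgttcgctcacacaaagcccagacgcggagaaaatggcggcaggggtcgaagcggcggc
SRSF5, ENSG00000100650, chr14:69726900-69772005, window chr14:69766892-69767191, plus strand: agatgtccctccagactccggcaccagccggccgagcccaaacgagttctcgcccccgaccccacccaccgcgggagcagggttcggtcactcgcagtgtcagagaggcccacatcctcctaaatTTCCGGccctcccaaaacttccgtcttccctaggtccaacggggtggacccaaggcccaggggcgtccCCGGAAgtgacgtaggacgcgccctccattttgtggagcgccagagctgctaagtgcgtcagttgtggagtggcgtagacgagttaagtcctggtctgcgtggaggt

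The E-box was in 7 of the 31 windows (22.6%), all of them of hnRNP genes, and in 7.43% of 27305 promoter windows of the same length. HNRNPH2, HNRNPM and HNRNPUL1 hold it, and the first 2 rose while the last fell in SU-DHL6. CCAAT was in 16 windows (51.6%, against 35.7% of all windows), CCGGAA in 7 (22.6% against 17.6%) and TATAAA in 5 (16.1% against 11.95%). The windows of HNRNPUL2 and HNRNPUL2-BSCL2 overlap, and the same CCAAT match was counted for both. The HNRNPA1L2 window, 1 of the 7 with CCGGAA, lies outside the locus of that gene in the deposited table. The median GC content was 64.0% in these 31 windows and 58.3% in all windows. These matches are descriptions of letters in the windows and not evidence of binding.

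In OCI-LY3, more of these genes fell than rose with treatment. At an adjusted p under 0.05, 17 of the 34 tested genes fell (12 hnRNP and 5 SR) and 2 rose (SRSF5 and SRSF6), while of all 16474 genes tested 22.2% fell and 22.2% rose. The median log2 fold change was -0.31 over the 34 genes and 0.00 over all genes. In SU-DHL6, 12 genes rose (8 hnRNP and 4 SR) and 8 fell (7 hnRNP and 1 SR), against 20.4% of all genes higher and 22.8% lower. The median there was 0.06 over the 34 genes and 0.00 over all. HNRNPA1, HNRNPA1P48, HNRNPAB, HNRNPC, HNRNPF and HNRNPUL1 fell in both lines, 6 of 34 where 8.83% of all genes did so. SRSF5 and SRSF6 rose in both lines (5.95% of all genes), and HNRNPA2B1 and HNRNPR fell in OCI-LY3 and rose in SU-DHL6 (3.37% of all genes). HNRNPA1L2, HNRNPDL, HNRNPK, HNRNPUL2-BSCL2 and SRSF3 were called in neither line by edgeR with TMM scaling, though some alternatives called HNRNPK, SRSF3 or HNRNPDL, as given with each gene. In SU-DHL6, 13 rose and 8 fell without the first untreated library, and 4 fell without the third untreated library. Every treated OCI-LY3 library lay above every untreated one for 4 of the 34 genes and below for 18. Of all genes tested, 28.8% and 28.7% did so. In SU-DHL6 these numbers were 11 and 10 of the 34 genes, against 25.5% and 25.6% of all genes. As RNA came from bulk cultures, fewer cells of a type and less RNA per cell cannot be told apart.

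**Figure D1:**
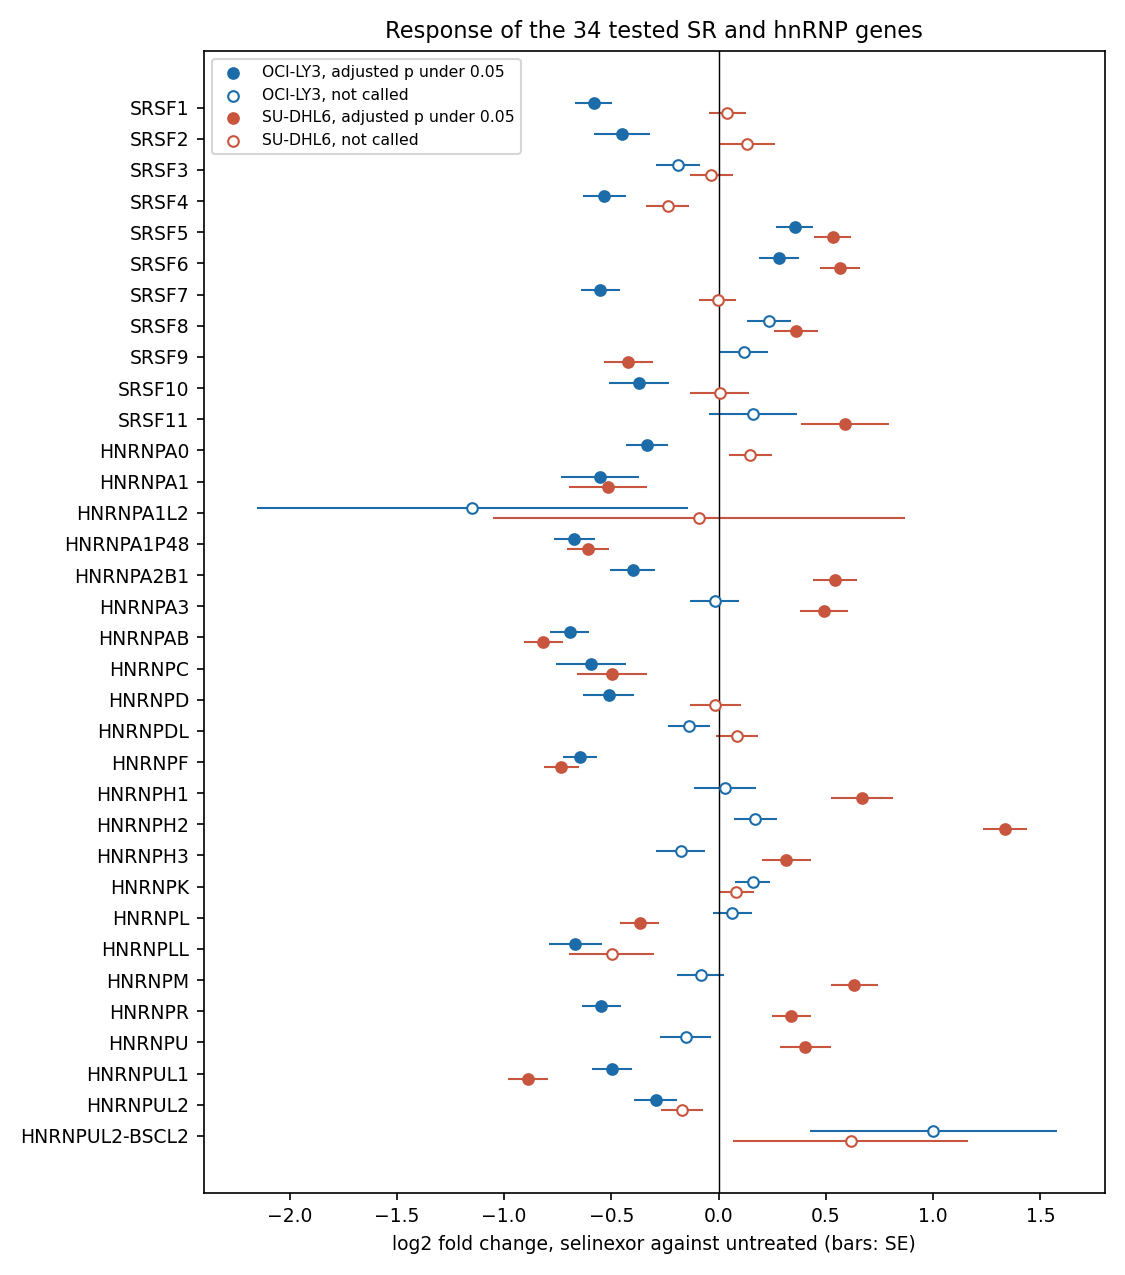
Log2 fold change of each of the 34 tested genes under selinexor, with bars for the SE, in OCI-LY3 (blue) and SU-DHL6 (red). Filled points passed an adjusted p under 0.05. Most OCI-LY3 points lie left of 0, with 17 genes lower and 2 higher, and the SU-DHL6 points lie on both sides, with 12 higher and 8 lower.

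Summed over the hnRNP genes, the level was 5862 ± 48.8 CPM in OCI-LY3 without and 4780 ± 61.1 CPM with selinexor (mean ± SD, n = 3). The SR genes summed to 1409 ± 31.1 CPM untreated and 1292 ± 65.0 CPM treated. In SU-DHL6 the hnRNP sum was 5819 ± 19.7 CPM untreated and 5571 ± 227 CPM treated, and the SR sum was 1730 ± 137 and 1893 ± 54.9 CPM. The direction of the hnRNP sum in SU-DHL6 depended on the scaling, since the unscaled share of all counts went from between 0.566 and 0.607% to between 0.654 and 0.692%. In OCI-LY3 that share went from between 0.550 and 0.566% to between 0.412 and 0.430%. With total counts as library sizes the median of all genes was -0.09 in OCI-LY3 and 0.27 in SU-DHL6 on the log2 scale. With that scaling 18 of the 34 genes rose and 4 fell in SU-DHL6, against 33% and 14.4% of all genes, and 1 rose and 18 fell in OCI-LY3, against 17.8% and 26.6%.

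A second measure that moved with treatment was base composition. The GC content of the genes, weighted by their counts, was 49.7 to 50.7% in untreated and 48.9 to 49.3% in treated SU-DHL6, and 50.7 to 51.0% and 50.6 to 51.2% in OCI-LY3. A fit that corrected each library for GC content and length with offsets, added after the data had been seen, called 9 genes higher and 12 lower in SU-DHL6, against 21.4% and 23.7% of all genes, and 6 higher and 16 lower in OCI-LY3, against 24.3% and 24.1%. HNRNPH2 and HNRNPM kept rises of 1.27 and 0.83 in SU-DHL6 in that fit, whereas HNRNPU and HNRNPR changed sign there, to -0.09 and -0.06 with no call. The part of base composition in the responses was not tested further.

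**Figure D2:**
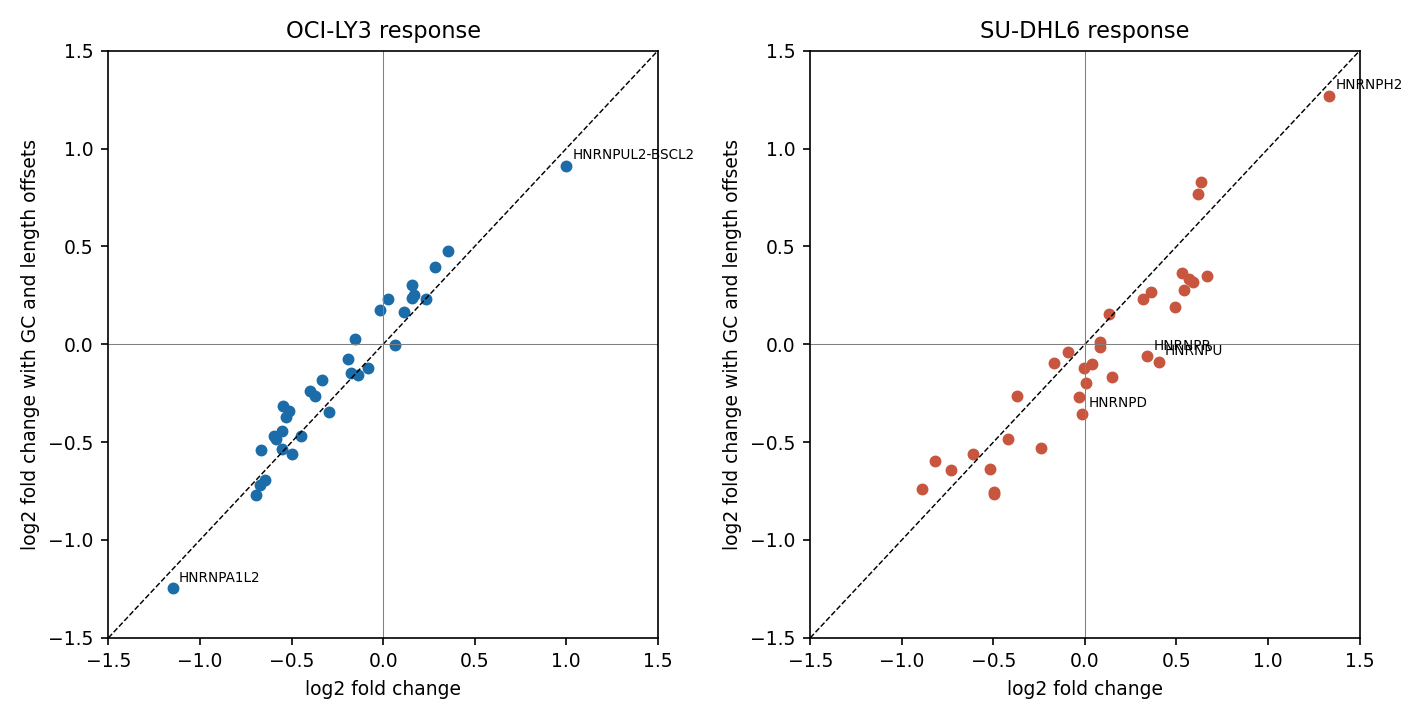
Log2 fold change of each tested gene (horizontal axis) against the value from the fit with GC and length offsets (vertical axis), for OCI-LY3 (left) and SU-DHL6 (right); the dashed line marks equal values. Most SU-DHL6 genes near or above 0 lie below the line, and HNRNPR and HNRNPU lie below 0 on the vertical axis.

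Among the SR genes, SRSF1, SRSF2, SRSF4, SRSF7 and SRSF10 fell in OCI-LY3. SRSF1 is the founding SR protein, which promotes exon inclusion and also acts in translation. SRSF1 stood at 238, 219 and 226 CPM in the 3 untreated OCI-LY3 libraries and 144, 148 and 164 CPM in the 3 treated ones, with every treated library lower, and fell (-0.58 ± 0.09, adjusted p = 9.77e-05). In SU-DHL6 SRSF1 stood at 257, 226 and 238 CPM untreated and 257, 239 and 247 CPM treated, with overlapping groups, and was not called (0.04 ± 0.09, adjusted p = 0.754). SRSF1 was, however, called higher with total counts as library sizes (0.30, adjusted p = 0.0162). SRSF7 is a zinc-knuckle SR protein that links splicing to mRNA export. SRSF7 stood at 85.8, 88.5 and 80.5 CPM in the 3 untreated OCI-LY3 libraries and 59.0, 59.3 and 55.6 CPM in the 3 treated ones, with every treated library lower, and fell (-0.55 ± 0.09, adjusted p = 0.00019). In SU-DHL6 SRSF7 stood at 113, 96.0 and 103 CPM untreated and 107, 102 and 101 CPM treated, with overlapping groups, and was not called (-0.0049 ± 0.09, adjusted p = 0.994). SRSF7 was, however, called higher with total counts as library sizes (0.26, adjusted p = 0.0372). The SRSF1 and SRSF7 responses thus differed in the same direction between the lines, as tested below.

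SRSF2 is an SR protein that stays in the nucleus and marks nuclear speckles. SRSF2 stood at 141, 127 and 138 CPM in the 3 untreated OCI-LY3 libraries and 89.6, 93.3 and 115 CPM in the 3 treated ones, with every treated library lower, and fell (-0.45 ± 0.13, adjusted p = 0.0121). The SRSF2 call in OCI-LY3 was lost without the first or the second treated OCI-LY3 library, with values of -0.40 to -0.38 and adjusted p from 0.0538 to 0.0625. In SU-DHL6 SRSF2 stood at 105, 91.0 and 110.1 CPM untreated and 118, 91.8 and 126 CPM treated, with overlapping groups, and was not called (0.13 ± 0.13, adjusted p = 0.438). SRSF2 was, however, called higher with total counts as library sizes (0.40, adjusted p = 0.027). SRSF2 shares exon sequence with MFSD11 on the opposite strand, and the strand setting of the counts is not given. SRSF3 is the smallest SR protein and an export adaptor. SRSF3 stood at 232, 240.2 and 225 CPM in the 3 untreated OCI-LY3 libraries and 196, 197 and 218 CPM in the 3 treated ones, with every treated library lower, and was not called (-0.19 ± 0.10, adjusted p = 0.146). SRSF3 was, however, called lower with the line fitted alone (-0.20, adjusted p = 0.0409) and with total counts as library sizes (-0.30, adjusted p = 0.0386). In SU-DHL6 SRSF3 stood at 367, 311 and 286 CPM untreated and 329, 289 and 325 CPM treated, with overlapping groups, and was not called (-0.03 ± 0.10, adjusted p = 0.83). SRSF3 was, however, called lower with GC and length offsets (-0.27, adjusted p = 0.0109). SRSF4 is a longer SR protein with paired RNA recognition motifs. SRSF4 stood at 77.8, 76.7 and 79.2 CPM in the 3 untreated OCI-LY3 libraries and 48.8, 61.0 and 51.8 CPM in the 3 treated ones, with every treated library lower, and fell (-0.53 ± 0.10, adjusted p = 0.000668). In SU-DHL6 SRSF4 stood at 95.6, 91.8 and 94.6 CPM untreated and 74.8, 77.1 and 87.2 CPM treated, with every treated library lower, and was not called (-0.24 ± 0.10, adjusted p = 0.0676). SRSF4 was, however, called lower with GC and length offsets (-0.53, adjusted p = 0.00073), without the third treated SU-DHL6 library (-0.31, adjusted p = 0.042), with limma-voom (-0.24, adjusted p = 0.0489) and with DESeq2 (-0.24, adjusted p = 0.0471). SRSF10, which represses splicing when it is dephosphorylated, fell by 0.37 on the log2 scale in OCI-LY3 (adjusted p = 0.0451). The SRSF10 call was lost with limma-voom (-0.37, adjusted p = 0.053) and without any 1 untreated OCI-LY3 library or any 1 treated OCI-LY3 library, with values of -0.42 to -0.33 and adjusted p from 0.0562 to 0.133. In SU-DHL6 SRSF10 was not called (0.01 ± 0.14, adjusted p = 1). SRSF10 was, however, called higher without the first untreated SU-DHL6 library (0.23, adjusted p = 0.0396).

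SRSF5 and SRSF6 were the SR genes that rose in both lines. SRSF5 is an SR protein with paired RNA recognition motifs. SRSF5 stood at 74.6, 67.1 and 67.4 CPM in the 3 untreated OCI-LY3 libraries and 85.3, 90.3 and 91.8 CPM in the 3 treated ones, with every treated library higher, and rose (0.36 ± 0.09, adjusted p = 0.00429). In SU-DHL6 SRSF5 stood at 101, 101 and 107 CPM untreated and 139, 155 and 153 CPM treated, with every treated library higher, and rose (0.53 ± 0.09, adjusted p = 0.000203). SRSF6 is a close relative of SRSF4 and SRSF5. SRSF6 stood at 181, 179 and 179 CPM in the 3 untreated OCI-LY3 libraries and 203, 214 and 238 CPM in the 3 treated ones, with every treated library higher, and rose (0.28 ± 0.09, adjusted p = 0.0259). In OCI-LY3 the call of SRSF6 was lost with total counts as library sizes (0.17, adjusted p = 0.218), with no filter on low counts (0.27, adjusted p = 0.0623) and without any 1 untreated OCI-LY3 library or the third treated OCI-LY3 library, with values of 0.22 to 0.29 and adjusted p from 0.0641 to 0.104. In SU-DHL6 SRSF6 stood at 269, 223 and 225 CPM untreated and 351, 347 and 363 CPM treated, with every treated library higher, and rose (0.57 ± 0.09, adjusted p = 0.000259). It was 0.33 with GC and length offsets. In both lines every treated library lay above every untreated one for both genes.

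SRSF8 and SRSF11 rose and SRSF9 fell in SU-DHL6. SRSF8, which arose as a retrogene copy of SRSF2, had a log2 fold change of 0.36 ± 0.10 (adjusted p = 0.0111) in SU-DHL6 and 0.23 ± 0.10 (adjusted p = 0.0779) in OCI-LY3. SRSF8 was, however, called higher with GC and length offsets (0.23, adjusted p = 0.0351), with the line fitted alone (0.22, adjusted p = 0.0476) and with DESeq2 (0.25, adjusted p = 0.0423). The SU-DHL6 call was lost without the second untreated SU-DHL6 library (0.26, adjusted p = 0.0662). It stayed a call at 0.62 with total counts as library sizes. For SRSF11, an SR-like protein, the SU-DHL6 value was 0.59 ± 0.21 (adjusted p = 0.0346) with overlapping groups. The SRSF11 call was lost with no filter on low counts (0.60, adjusted p = 0.0622), with the line fitted alone (0.60, adjusted p = 0.0623), with GC and length offsets (0.32, adjusted p = 0.11) and without the second or the third untreated SU-DHL6 library or the second or the third treated SU-DHL6 library, with values of 0.46 to 0.55 and adjusted p from 0.0908 to 0.134. It stayed a call at 0.90 without the first untreated SU-DHL6 library. SRSF9 is a small SR protein related to SRSF1. SRSF9 stood at 199.9, 232 and 193 CPM in the 3 untreated OCI-LY3 libraries and 223, 229 and 226 CPM in the 3 treated ones, with overlapping groups, and was not called (0.12 ± 0.11, adjusted p = 0.439). In SU-DHL6 SRSF9 stood at 193, 248 and 254 CPM untreated and 188, 158 and 173 CPM treated, with every treated library lower, and fell (-0.42 ± 0.11, adjusted p = 0.0084). The SRSF9 call in SU-DHL6 was lost with total counts as library sizes (-0.15, adjusted p = 0.237) and without the third untreated SU-DHL6 library (-0.32, adjusted p = 0.0663). SRSF9 shares exon sequence with GATC on the opposite strand.

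The hnRNP A/B genes split. HNRNPA1, HNRNPA1P48 and HNRNPAB fell in both lines, HNRNPA2B1 moved in opposite directions and HNRNPA3 rose in SU-DHL6. HNRNPA1 is an abundant shuttling repressor of exon inclusion. HNRNPA1 stood at 344, 336 and 246 CPM in the 3 untreated OCI-LY3 libraries and 182, 176 and 273 CPM in the 3 treated ones, with overlapping groups, and fell (-0.55 ± 0.18, adjusted p = 0.0253). In OCI-LY3 the call of HNRNPA1 was lost with the line fitted alone (-0.56, adjusted p = 0.062) and without the first or the second untreated OCI-LY3 library or the first or the second treated OCI-LY3 library, with values of -0.49 to -0.43 and adjusted p from 0.0828 to 0.0997. In SU-DHL6 HNRNPA1 stood at 341, 249.9 and 285 CPM untreated and 186, 198 and 229 CPM treated, with every treated library lower, and fell (-0.52 ± 0.18, adjusted p = 0.0356). For HNRNPA1 the SU-DHL6 call was lost with total counts as library sizes (-0.25, adjusted p = 0.318), with no filter on low counts (-0.50, adjusted p = 0.0778), with a filter of 5 CPM in 3 libraries (-0.46, adjusted p = 0.0501) and without the first or the third untreated SU-DHL6 library or the first or the second treated SU-DHL6 library, with values of -0.50 to -0.40 and adjusted p from 0.0903 to 0.136. HNRNPA1P48 is an HNRNPA1 copy that the table types as protein-coding. HNRNPA1P48 stood at 333, 327 and 309 CPM in the 3 untreated OCI-LY3 libraries and 208, 202 and 199.6 CPM in the 3 treated ones, with every treated library lower, and fell (-0.67 ± 0.10, adjusted p = 6.57e-05). In SU-DHL6 HNRNPA1P48 stood at 268, 283 and 261 CPM untreated and 185, 195 and 152 CPM treated, with every treated library lower, and fell (-0.61 ± 0.10, adjusted p = 0.000163). It was -0.35 with total counts as library sizes. Treated libraries were lower than untreated ones for both, except where the HNRNPA1 groups overlapped in OCI-LY3.

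Reads of HNRNPA1 may be divided among its copies. The table holds 74 pseudogene rows named after HNRNPA1, and they took 65.7 to 76.5% of the counts of HNRNPA1 and those rows together. HNRNPA1P7 alone had more counts than HNRNPA1. With these rows added to HNRNPA1, an alternative chosen after the data had been seen, the log2 fold change was -0.63 in OCI-LY3 (adjusted p = 0.000445) and -0.57 in SU-DHL6 (adjusted p = 0.00101). HNRNPA1P48 was not among the added rows, so it and HNRNPA1 were counted as separate genes throughout although they may share reads. The share of counts on HNRNPA3 pseudogenes was 33.7 to 42.6%, on those of HNRNPC 10.9 to 18.3% and on those of HNRNPK 7.74 to 8.74%, and adding them changed no call of any of the 34 genes. Rows typed as pseudogenes took 6.59 to 6.86% of all counts in untreated and 8.16 to 8.45% in treated OCI-LY3, and 7.69 to 8.41% and 5.13 to 6.05% in SU-DHL6. HNRNPA1L2, a retrogene copy, was called in neither line and varied between replicates, from 1.73 to 21.1 CPM over the 12 libraries.

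**Figure D3:**
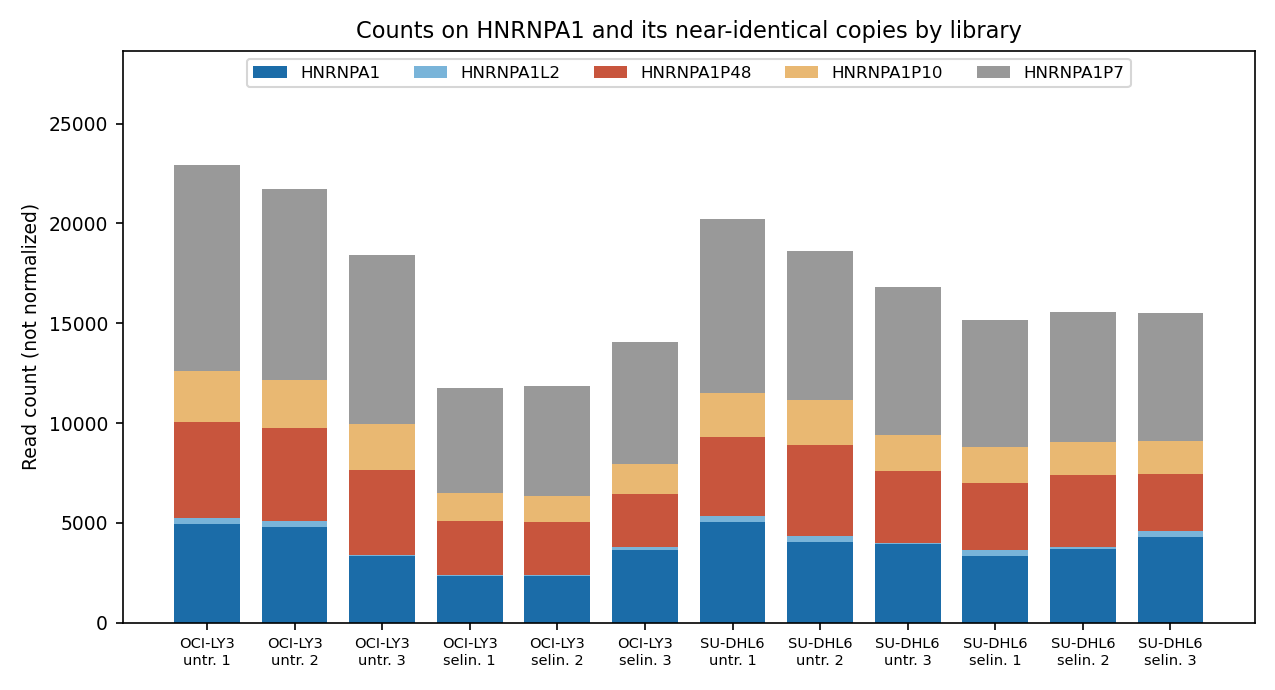
Stacked bars give the unscaled read count in each of the 12 libraries on HNRNPA1 (dark blue), HNRNPA1L2 (light blue), HNRNPA1P48 (red), HNRNPA1P10 (yellow) and HNRNPA1P7 (grey). HNRNPA1P7 takes the largest part of the bar in each library, and the bars are shorter in the treated libraries of both lines.

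HNRNPA2B1 binds nuclear RNA and sorts RNA into vesicles, and its product has been described as a reader of methylated adenosine. HNRNPA2B1 stood at 306, 309.9 and 299 CPM in the 3 untreated OCI-LY3 libraries and 210.0, 218 and 264 CPM in the 3 treated ones, with every treated library lower, and fell (-0.40 ± 0.10, adjusted p = 0.00583). It was -0.24 with GC and length offsets. In SU-DHL6 HNRNPA2B1 stood at 469, 417 and 424 CPM untreated and 652, 678 and 579 CPM treated, with every treated library higher, and rose (0.54 ± 0.10, adjusted p = 0.000713). It was 0.28 with GC and length offsets. HNRNPA2B1 lies head to head with CBX3 and shares exon sequence with it. HNRNPA3 is a paralog of HNRNPA2B1. HNRNPA3 stood at 137, 127 and 114 CPM in the 3 untreated OCI-LY3 libraries and 120.0, 123 and 130.1 CPM in the 3 treated ones, with overlapping groups, and was not called (-0.02 ± 0.11, adjusted p = 0.922). HNRNPA3 was, however, called higher with GC and length offsets (0.17, adjusted p = 0.0309). In SU-DHL6 HNRNPA3 stood at 194, 145 and 151 CPM untreated and 226, 239 and 225 CPM treated, with every treated library higher, and rose (0.49 ± 0.11, adjusted p = 0.00279). It was 0.75 with total counts as library sizes and 0.19 with GC and length offsets.

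HNRNPAB encodes a CArG-box and RNA binding protein. HNRNPAB stood at 323, 346 and 349 CPM in the 3 untreated OCI-LY3 libraries and 220.0, 207 and 202 CPM in the 3 treated ones, with every treated library lower, and fell (-0.69 ± 0.09, adjusted p = 2.87e-05). In SU-DHL6 HNRNPAB stood at 278, 329 and 338 CPM untreated and 180.0, 176 and 180.3 CPM treated, with every treated library lower, and fell (-0.82 ± 0.09, adjusted p = 7.3e-06). Its exons overlap those of PHYKPL on the opposite strand. HNRNPA0 is an intronless gene whose product binds AU-rich mRNA. HNRNPA0 stood at 278, 287 and 311 CPM in the 3 untreated OCI-LY3 libraries and 243, 237 and 215 CPM in the 3 treated ones, with every treated library lower, and fell (-0.33 ± 0.10, adjusted p = 0.0136). In OCI-LY3 the call of HNRNPA0 was lost with GC and length offsets (-0.18, adjusted p = 0.301) and without the third untreated OCI-LY3 library or the third treated OCI-LY3 library, with values of -0.29 to -0.28 and adjusted p from 0.0592 to 0.0628. In SU-DHL6 HNRNPA0 stood at 203, 249.6 and 256 CPM untreated and 257, 267 and 262 CPM treated, with every treated library higher, and was not called (0.15 ± 0.10, adjusted p = 0.248). HNRNPA0 was, however, called higher with total counts as library sizes (0.42, adjusted p = 0.00163). HNRNPAB was lower in every treated library of both lines, by a margin larger than the spread between replicates.

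Among the genes of the C, D and R proteins, HNRNPC fell in both lines and HNRNPR moved in opposite directions. HNRNPC forms the tetramer around which nascent transcripts wrap, and it competes with U2AF for uridine tracts. HNRNPC stood at 524, 494 and 419.6 CPM in the 3 untreated OCI-LY3 libraries and 265, 335 and 352 CPM in the 3 treated ones, with every treated library lower, and fell (-0.59 ± 0.16, adjusted p = 0.00857). In SU-DHL6 HNRNPC stood at 374, 411 and 409 CPM untreated and 264, 363 and 219.5 CPM treated, with every treated library lower, and fell (-0.50 ± 0.16, adjusted p = 0.0234). The HNRNPC call in SU-DHL6 was lost with total counts as library sizes (-0.23, adjusted p = 0.251) and without the second or the third untreated SU-DHL6 library or the first or the third treated SU-DHL6 library, with values of -0.48 to -0.35 and adjusted p from 0.0623 to 0.101. It stayed a call at -0.77 with GC and length offsets. HNRNPD, also known as AUF1, promotes decay of AU-rich mRNAs. HNRNPD stood at 267, 265 and 287 CPM in the 3 untreated OCI-LY3 libraries and 198, 194 and 183 CPM in the 3 treated ones, with every treated library lower, and fell (-0.51 ± 0.12, adjusted p = 0.00287). In SU-DHL6 HNRNPD stood at 137, 143 and 143 CPM untreated and 141, 166 and 111 CPM treated, with overlapping groups, and was not called (-0.02 ± 0.12, adjusted p = 0.949). HNRNPD was, however, called lower with GC and length offsets (-0.35, adjusted p = 0.0445). HNRNPR is a relative of SYNCRIP. HNRNPR stood at 136, 132 and 132 CPM in the 3 untreated OCI-LY3 libraries and 94.7, 93.3 and 85.0 CPM in the 3 treated ones, with every treated library lower, and fell (-0.55 ± 0.09, adjusted p = 0.000226). It was -0.31 with GC and length offsets. In SU-DHL6 HNRNPR stood at 168, 144 and 142 CPM untreated and 189, 199.9 and 186 CPM treated, with every treated library higher, and rose (0.34 ± 0.09, adjusted p = 0.00727). The HNRNPR call in SU-DHL6 was lost with GC and length offsets (-0.06, adjusted p = 0.552). It stayed a call at 0.60 with total counts as library sizes. HNRNPDL, the paralog of HNRNPD, had values of -0.14 ± 0.10 (adjusted p = 0.273) in OCI-LY3 and 0.08 ± 0.10 (adjusted p = 0.523) in SU-DHL6. HNRNPDL was, however, called higher with total counts as library sizes (0.34, adjusted p = 0.0131).

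The F and H proteins bind runs of guanines, and their genes did not move as one group: HNRNPF fell in both lines while HNRNPH1, HNRNPH2 and HNRNPH3 rose in SU-DHL6. HNRNPF stood at 293, 285 and 283 CPM in the 3 untreated OCI-LY3 libraries and 180.2, 182 and 189 CPM in the 3 treated ones, with every treated library lower, and fell (-0.65 ± 0.08, adjusted p = 1.84e-05). In SU-DHL6 HNRNPF stood at 409, 408 and 425 CPM untreated and 267, 245 and 235 CPM treated, with every treated library lower, and fell (-0.73 ± 0.08, adjusted p = 6.25e-06). It was -0.47 with total counts as library sizes. HNRNPH2 is the X-linked paralog of HNRNPH1. HNRNPH2 stood at 71.4, 69.8 and 61.6 CPM in the 3 untreated OCI-LY3 libraries and 80.5, 70.0 and 77.9 CPM in the 3 treated ones, with overlapping groups, and was not called (0.17 ± 0.10, adjusted p = 0.189). HNRNPH2 was, however, called higher with GC and length offsets (0.25, adjusted p = 0.0156). In SU-DHL6 HNRNPH2 stood at 41.7, 36.1 and 38.2 CPM untreated and 105, 93.2 and 93.9 CPM treated, with every treated library higher, and rose (1.33 ± 0.10, adjusted p = 2.05e-07). HNRNPH2 had the largest fold change of the 34 genes in SU-DHL6, from 38.6 to 97.4 CPM on average. Its exons overlap those of the readthrough gene RPL36A-HNRNPH2. HNRNPH1 is the more studied of the paralogs. HNRNPH1 stood at 141, 104 and 109 CPM in the 3 untreated OCI-LY3 libraries and 114, 121 and 126 CPM in the 3 treated ones, with overlapping groups, and was not called (0.03 ± 0.14, adjusted p = 0.901). In SU-DHL6 HNRNPH1 stood at 170.1, 132 and 114 CPM untreated and 207, 237 and 217 CPM treated, with every treated library higher, and rose (0.67 ± 0.14, adjusted p = 0.00176). It was 0.35 with GC and length offsets. HNRNPH3 lacks one of the RNA recognition motifs of its relatives. HNRNPH3 stood at 57.2, 61.0 and 53.2 CPM in the 3 untreated OCI-LY3 libraries and 48.6, 52.8 and 50.3 CPM in the 3 treated ones, with every treated library lower, and was not called (-0.18 ± 0.11, adjusted p = 0.233). In SU-DHL6 HNRNPH3 stood at 98.9, 77.1 and 85.1 CPM untreated and 105, 122 and 98.3 CPM treated, with overlapping groups, and rose (0.32 ± 0.11, adjusted p = 0.0353). For HNRNPH3 the SU-DHL6 call was lost with the line fitted alone (0.33, adjusted p = 0.0742) and without the second or the third untreated SU-DHL6 library or the first or the second treated SU-DHL6 library, with values of 0.22 to 0.34 and adjusted p from 0.0523 to 0.166. It stayed a call at 0.58 with total counts as library sizes. HNRNPH3 overlaps RUFY2 on the opposite strand.

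**Figure D4:**
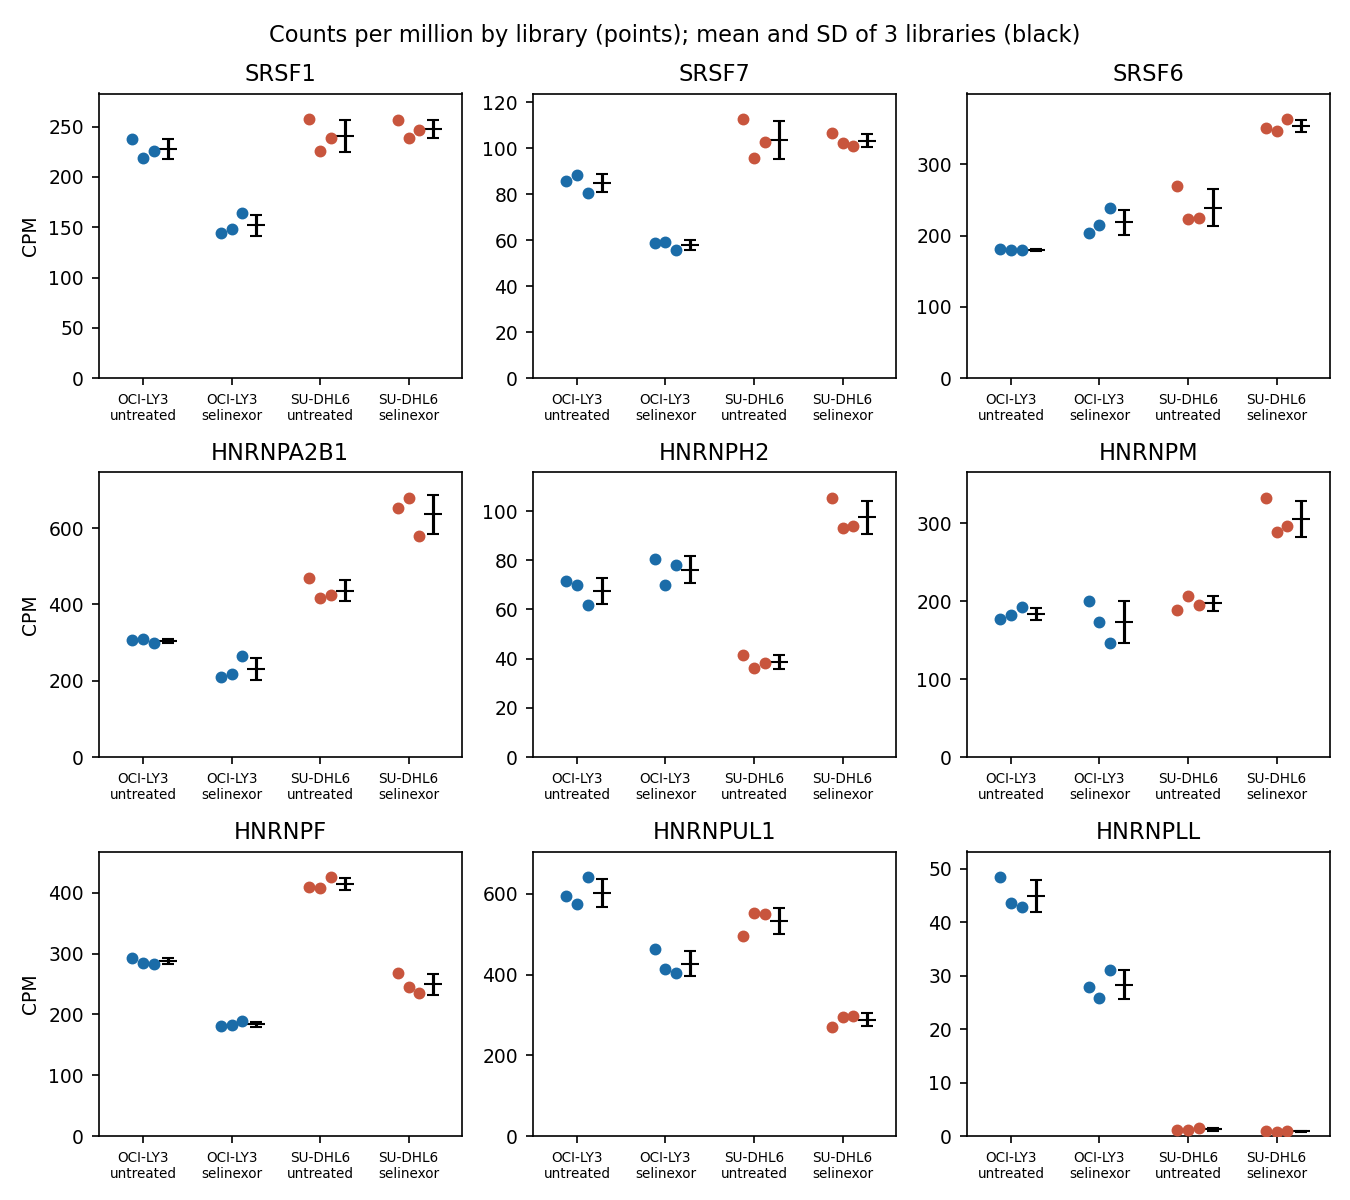
CPM of 9 genes in each of the 12 libraries (points, blue for OCI-LY3 and red for SU-DHL6), with the mean and SD of 3 libraries in black; each vertical axis starts at 0. SRSF1 and SRSF7 are lower in treated OCI-LY3, HNRNPA2B1, HNRNPH2 and HNRNPM are higher in treated SU-DHL6, and HNRNPLL is near 0 in SU-DHL6.

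HNRNPK, HNRNPL, HNRNPLL and HNRNPM encode proteins with distinct RNA preferences. HNRNPK stood at 600.3, 589 and 594 CPM in the 3 untreated OCI-LY3 libraries and 635, 650.4 and 705 CPM in the 3 treated ones, with every treated library higher, and was not called (0.16 ± 0.08, adjusted p = 0.135). HNRNPK was, however, called higher with GC and length offsets (0.23, adjusted p = 0.00306) and with DESeq2 (0.18, adjusted p = 0.037). In SU-DHL6 HNRNPK stood at 737, 664 and 707 CPM untreated and 773, 735 and 724 CPM treated, with overlapping groups, and was not called (0.08 ± 0.08, adjusted p = 0.446). HNRNPK was, however, called higher with total counts as library sizes (0.35, adjusted p = 0.00381). HNRNPL binds CA repeats. HNRNPL stood at 486, 524 and 535 CPM in the 3 untreated OCI-LY3 libraries and 568, 536 and 511 CPM in the 3 treated ones, with overlapping groups, and was not called (0.06 ± 0.09, adjusted p = 0.614). In SU-DHL6 HNRNPL stood at 528, 586 and 633 CPM untreated and 470.2, 429 and 455 CPM treated, with every treated library lower, and fell (-0.37 ± 0.09, adjusted p = 0.00511). The HNRNPL call in SU-DHL6 was lost with total counts as library sizes (-0.10, adjusted p = 0.32) and without the third untreated SU-DHL6 library (-0.27, adjusted p = 0.0514). HNRNPM binds GU-rich RNA. HNRNPM stood at 177, 182 and 192 CPM in the 3 untreated OCI-LY3 libraries and 201, 173 and 147 CPM in the 3 treated ones, with overlapping groups, and was not called (-0.08 ± 0.11, adjusted p = 0.57). In SU-DHL6 HNRNPM stood at 189, 207 and 195 CPM untreated and 332, 288 and 297 CPM treated, with every treated library higher, and rose (0.63 ± 0.11, adjusted p = 0.000332). HNRNPLL, the relative of HNRNPL that controls exon skipping of CD45 (PTPRC) in activated lymphocytes, stood at 48.4, 43.7 and 42.9 CPM in untreated OCI-LY3 and 27.99, 25.8 and 31.1 CPM in treated OCI-LY3, and fell (-0.67 ± 0.12, adjusted p = 0.000519). In SU-DHL6 HNRNPLL stood at 1.15, 1.12 and 1.51 CPM untreated and 0.940, 0.810 and 0.908 CPM treated, with every treated library lower, and was not called (-0.50 ± 0.20, adjusted p = 0.139). HNRNPLL was, however, called lower with GC and length offsets (-0.75, adjusted p = 0.0205).

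The U proteins bind nuclear scaffold RNA and chromatin. HNRNPU stood at 371, 425 and 440.3 CPM in the 3 untreated OCI-LY3 libraries and 361, 383 and 368 CPM in the 3 treated ones, with overlapping groups, and was not called (-0.15 ± 0.12, adjusted p = 0.319). In SU-DHL6 HNRNPU stood at 337, 343 and 252 CPM untreated and 414, 443 and 377 CPM treated, with every treated library higher, and rose (0.40 ± 0.12, adjusted p = 0.0133). For HNRNPU the SU-DHL6 call was lost with GC and length offsets (-0.09, adjusted p = 0.577) and without the second treated SU-DHL6 library (0.35, adjusted p = 0.0566). It stayed a call at 0.66 with total counts as library sizes. HNRNPU overlaps COX20 on the opposite strand. HNRNPUL1 is an HNRNPU-like protein with a role in the DNA damage response. HNRNPUL1 stood at 594, 574 and 641 CPM in the 3 untreated OCI-LY3 libraries and 463, 413 and 405 CPM in the 3 treated ones, with every treated library lower, and fell (-0.50 ± 0.09, adjusted p = 0.000542). In SU-DHL6 HNRNPUL1 stood at 497, 553 and 549.5 CPM untreated and 269.8, 296 and 299 CPM treated, with every treated library lower, and fell (-0.89 ± 0.09, adjusted p = 3.99e-06). HNRNPUL1 had the largest fall of the 34 genes in SU-DHL6, and its exons overlap those of TGFB1. HNRNPUL2 fell by 0.29 on the log2 scale in OCI-LY3 (adjusted p = 0.0274). The HNRNPUL2 call was lost without the second or the third untreated OCI-LY3 library or the third treated OCI-LY3 library, with values of -0.28 to -0.22 and adjusted p from 0.0813 to 0.117. In SU-DHL6 HNRNPUL2 was not called (-0.17 ± 0.10, adjusted p = 0.182). HNRNPUL2 was, however, called lower without the first untreated SU-DHL6 library (-0.26, adjusted p = 0.0356). The readthrough gene HNRNPUL2-BSCL2 was called in neither line.

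Exons of 14 of the 34 tested genes overlap those of another gene with a mean count of at least 10, and a gene and its antisense partner cannot be told apart without strand. Among the 20 genes with no such overlap, 2 rose and 10 fell in OCI-LY3, against 22.2% of all genes in each direction, and 8 rose and 5 fell in SU-DHL6, against 20.4% and 22.8%.

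The difference of the responses, SU-DHL6 minus OCI-LY3, was tested as an interaction in the same fit. It was called positive for 13 of the 34 genes and negative for 3, against 17% and 19.9% of all genes tested. The difference was largest for HNRNPH2 1.16 ± 0.14 (adjusted p = 3.21e-05), followed by HNRNPA2B1 0.94 ± 0.15 (adjusted p = 0.0002) and HNRNPR 0.89 ± 0.13 (adjusted p = 0.000112). The HNRNPR difference as a call was lost with GC and length offsets (0.25, adjusted p = 0.082). HNRNPM had a difference of 0.72 ± 0.15 (adjusted p = 0.00227). SRSF1 and SRSF7, which fell in OCI-LY3 and were not called in SU-DHL6, differed by 0.62 ± 0.12 (adjusted p = 0.00126) and 0.55 ± 0.13 (adjusted p = 0.0036). HNRNPUL1 fell in both lines and further in SU-DHL6, by -0.39 ± 0.13 (adjusted p = 0.029). The call of this difference was lost with total counts as library sizes (-0.01, adjusted p = 1), with no filter on low counts (-0.37, adjusted p = 0.0809), with GC and length offsets (-0.18, adjusted p = 0.149) and without the first or the second untreated OCI-LY3 library, the first treated OCI-LY3 library, the second or the third untreated SU-DHL6 library or the first treated SU-DHL6 library, with values of -0.39 to -0.33 and adjusted p from 0.0535 to 0.107. HNRNPL and SRSF9, which fell in SU-DHL6, differed by -0.43 ± 0.13 (adjusted p = 0.0181) and -0.54 ± 0.16 (adjusted p = 0.0178). The HNRNPL difference as a call was lost with total counts as library sizes (-0.05, adjusted p = 0.776), with GC and length offsets (-0.26, adjusted p = 0.0659) and without the first untreated OCI-LY3 library, the first treated OCI-LY3 library or the third untreated SU-DHL6 library, with values of -0.40 to -0.33 and adjusted p from 0.051 to 0.0894. For SRSF9 the difference as a call was lost with total counts as library sizes (-0.16, adjusted p = 0.431) and without the third untreated SU-DHL6 library (-0.42, adjusted p = 0.0769). The differences of HNRNPA2B1, HNRNPH2, HNRNPM, SRSF1 and SRSF7 were called in every alternative with a threshold of 0.05, but their sizes moved. With GC and length offsets HNRNPA2B1 had a difference of 0.52, SRSF1 of 0.39 and SRSF7 of 0.32. With total counts as library sizes SRSF1 had 1.00, SRSF7 0.92 and HNRNPM 1.097. With GC and length offsets 7 of the 34 were positive and 2 negative, against 17.4% and 20% of all genes. With total counts as library sizes, where the median difference of all genes was 0.35, 23 were positive and none of the 34 negative (0 at an unadjusted p under 0.05), against 29.7% and 11% of all genes.

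The other 7 positive differences each lost the call in 1 or more alternatives. SRSF2 had a difference of 0.58 ± 0.18 (adjusted p = 0.0233), HNRNPH1 of 0.64 ± 0.20 (adjusted p = 0.0232) and HNRNPU of 0.56 ± 0.17 (adjusted p = 0.0181). For HNRNPA3 the difference was 0.51 ± 0.16 (adjusted p = 0.0214), for HNRNPD 0.50 ± 0.17 (adjusted p = 0.0315), for HNRNPH3 0.49 ± 0.16 (adjusted p = 0.0272) and for HNRNPA0 0.48 ± 0.14 (adjusted p = 0.0149). With total counts as library sizes these 7 had larger differences, from 0.87 to 1.01. With GC and length offsets the values fell short of a call for HNRNPA0 (0.0149), HNRNPA3 (0.0146), HNRNPD (-0.0105), HNRNPH1 (0.12) and HNRNPU (-0.12). Leaving out the first untreated OCI-LY3 library ended the calls of HNRNPA3 (0.44), HNRNPD (0.51), HNRNPH1 (0.49), HNRNPH3 (0.49) and SRSF2 (0.55), and leaving out the second untreated SU-DHL6 library ended those of HNRNPA3 (0.42), HNRNPD (0.50), HNRNPH1 (0.60), HNRNPH3 (0.40) and SRSF2 (0.50). The HNRNPU difference was not called without the third untreated OCI-LY3 library either (0.50, adjusted p = 0.0507).

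Before treatment the lines already differed in 20 of the 34 genes. In untreated SU-DHL6, 12 were higher and 8 lower than in untreated OCI-LY3, against 33.7% and 33.6% of all genes tested. The number higher was near the share of all genes and the number lower was below it. HNRNPLL stood at 48.4, 43.7 and 42.9 CPM in untreated OCI-LY3 and at 1.15, 1.12 and 1.51 CPM in untreated SU-DHL6, a log2 difference of -5.15 ± 0.16 (adjusted p = 1.85e-12). SRSF10 was higher in SU-DHL6, at 194, 125 and 129 CPM against 80.0, 73.4 and 76.8 CPM (0.96 ± 0.14, adjusted p = 2.78e-05). HNRNPD was lower in SU-DHL6, at 137, 143 and 143 CPM against 267, 265 and 287 CPM (-0.96 ± 0.12, adjusted p = 5.66e-06). HNRNPH2 was also lower in untreated SU-DHL6 (-0.81 ± 0.10, adjusted p = 6.9e-06), and its level in treated SU-DHL6 lay above that of either OCI-LY3 group. No untreated library of one line reached the range of the other for HNRNPLL, SRSF10, HNRNPD or HNRNPH2. Such a lack of overlap was common, with 35.4% of all genes tested higher and 35.6% lower in SU-DHL6. The untreated libraries also enter the responses, so the comparisons share samples.

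**Figure D5:**
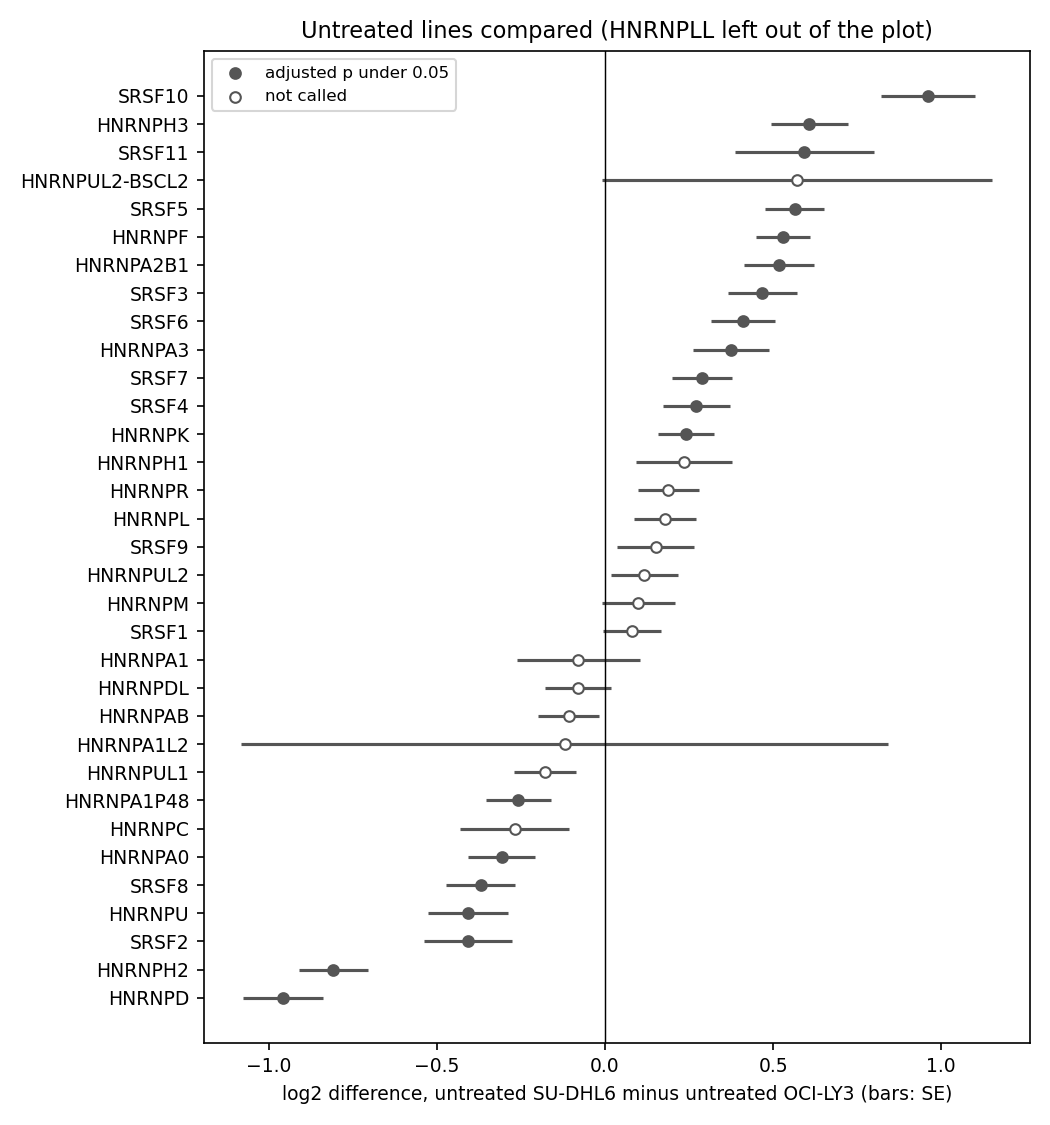
Log2 difference between the untreated lines, SU-DHL6 minus OCI-LY3, for 33 of the 34 tested genes, with bars for the SE; filled points passed an adjusted p under 0.05. HNRNPLL, at -5.15, is left out so that the other genes can be read. SRSF10 is at the top and HNRNPD at the bottom.

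Other genes of splicing were counted from lists chosen with earlier results of these data known, to be read against 22.2% of all genes higher and 22.2% lower in OCI-LY3 and 20.4% and 22.8% in SU-DHL6. With total counts as library sizes these shares were 17.8% and 26.6% in OCI-LY3 and 33% and 14.4% in SU-DHL6. With GC and length offsets they were 24.3% and 24.1% in OCI-LY3 and 21.4% and 23.7% in SU-DHL6. Of 8 tested kinases of SR and hnRNP proteins, 3 fell in OCI-LY3 and 0 rose by edgeR (0 also at an unadjusted p under 0.05 and by DESeq2 and limma-voom, and 1 with GC and length offsets). SRPK1 and SRPK2, which phosphorylate SR proteins in the cytoplasm, had values of -0.60 ± 0.12, adjusted p = 0.000828, and -0.40 ± 0.11, adjusted p = 0.0093. In SU-DHL6, 4 kinases rose and 0 fell by edgeR (0 at an unadjusted p under 0.05, by DESeq2 and by limma-voom, and 1 with no filter and without the first untreated library), among them CLK1, a nuclear SR protein kinase (1.00 ± 0.14, adjusted p = 5e-05) and PRPF4B (0.80 ± 0.13, adjusted p = 0.000168, but 0.48 with GC and length offsets). Of 25 SR-related proteins, 5 fell and 0 rose in OCI-LY3 by edgeR (1 rose at an unadjusted p under 0.05, 0 by DESeq2 and limma-voom, 1 with the line alone or without the third treated library, and 3 with GC and length offsets). SRRM1, a coactivator on exonic enhancers (-0.80 ± 0.11, adjusted p = 3.15e-05), and TRA2B, a sequence-specific activator (-0.57 ± 0.10, adjusted p = 0.000284), were among those that fell. In SU-DHL6, 14 of the 25 rose and 1 fell, with SCAF11 (0.98 ± 0.13, adjusted p = 4.71e-05) and TRA2A (0.76 ± 0.11, adjusted p = 9.1e-05) among those that rose and SFSWAP (-0.29 ± 0.10, adjusted p = 0.0382) the one that fell. The SFSWAP call was lost with total counts as library sizes (-0.03, adjusted p = 0.887), with no filter (-0.28, adjusted p = 0.0966), with a filter of 5 CPM in 3 libraries (-0.23, adjusted p = 0.0727), with the line alone (-0.28, adjusted p = 0.0719) and without any 1 of 5 SU-DHL6 libraries, all but the second treated one. Medians were -0.24 and 0.41 for the kinases and -0.13 and 0.37 for the SR-related proteins, against 0.00 for all genes in both lines. With GC and length offsets the SU-DHL6 counts were 3 higher and 2 lower for the kinases and 13 and 3 for the SR-related proteins. With total counts as library sizes they were 5 and 0 for the kinases and 17 and 0 for the SR-related proteins, and in OCI-LY3 5 kinases and 9 SR-related proteins fell.

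Of 37 hnRNP proteins under other symbols and other splicing regulators, 1 rose and 16 fell in OCI-LY3, and 10 rose and 15 fell in SU-DHL6. CELF2, a regulator of lymphocyte splicing, was the one that rose in OCI-LY3 (1.23 ± 0.34, adjusted p = 0.0106), and DAZAP1 (-1.12 ± 0.09, adjusted p = 2.04e-07) and the cold-inducible RBM3 (-0.87 ± 0.10, adjusted p = 1.05e-05) fell. In SU-DHL6 FUBP1 (0.64 ± 0.12, adjusted p = 0.000552) and SYNCRIP (0.54 ± 0.10, adjusted p = 0.00066) rose, SYNCRIP by only 0.18 with GC and length offsets (adjusted p = 0.0479), and the cytosine-rich RNA binder PCBP2 (-1.43 ± 0.11, adjusted p = 2.07e-07) and RALY (-1.30 ± 0.14, adjusted p = 5.84e-06) fell. Of 50 spliceosome core genes, 5 rose and 12 fell in OCI-LY3, and 14 rose and 15 fell in SU-DHL6. The number that fell in OCI-LY3 is near the share of all genes. SLU7, a factor for the choice of the 3′ splice site, rose in both lines (0.68 ± 0.12, adjusted p = 0.000334 in OCI-LY3, and 1.35 ± 0.12, adjusted p = 6.15e-07 in SU-DHL6). The snRNP protein genes SNRPA1 and SNRPA fell in OCI-LY3 (-1.64 ± 0.13, adjusted p = 2.34e-07, and -1.32 ± 0.18, adjusted p = 4.63e-05), as did SNRPB and SF3A2 in SU-DHL6 (-1.31 ± 0.12, adjusted p = 7.86e-07, and -1.35 ± 0.15, adjusted p = 6.35e-06). With total counts as library sizes the SU-DHL6 counts were 11 higher and 6 lower for the regulators and 25 and 11 for the spliceosome, so the larger direction changed with the scaling. In that fit 33% of all genes were higher and 14.4% lower in SU-DHL6, so the shares of all genes moved as well. With GC and length offsets they were 6 and 15 for the regulators and 19 and 15 for the spliceosome, and in OCI-LY3 2 regulators and 8 spliceosome genes rose. Medians were -0.39 and -0.15 for the regulators and 0.03 and 0.025 for the spliceosome, in OCI-LY3 and SU-DHL6.

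The import receptors of these proteins fell in OCI-LY3, 3 of 3. TNPO3, which imports SR proteins, had a value of -0.62 ± 0.09, adjusted p = 7.42e-05, TNPO1, which imports HNRNPA1, one of -0.84 ± 0.14, adjusted p = 0.000299, and TNPO2 one of -0.38 ± 0.10, adjusted p = 0.00895. In SU-DHL6 0 of 3 were called by edgeR in either direction (1 was higher at an unadjusted p under 0.05, and 0 by DESeq2 and limma-voom). With total counts as library sizes 2 were called higher there, with a filter of 5 CPM in 3 libraries 1, and with GC and length offsets TNPO2 was higher (0.34, adjusted p = 0.000946) and TNPO1 lower (-0.52, adjusted p = 0.000175). Of 15 genes of nonsense-mediated decay and the exon junction complex, 1 rose and 4 fell in OCI-LY3, where 22.2% of all genes fell, with the decay helicase UPF1 at -0.98 ± 0.14, adjusted p = 5.85e-05, and RBM8A at 0.38 ± 0.10, adjusted p = 0.00578. The RBM8A call was lost with total counts as library sizes (0.26, adjusted p = 0.0519), where 0 of the 15 rose and 6 fell, against 17.8% and 26.6% of all genes. In SU-DHL6 5 rose and 5 fell, among them SMG1, the kinase of UPF1 (0.88 ± 0.13, adjusted p = 9.1e-05), UPF2 (0.92 ± 0.15, adjusted p = 0.000168), SMG9 (-1.14 ± 0.13, adjusted p = 1.16e-05) and SMG5 (-0.54 ± 0.09, adjusted p = 0.000202). The value of SMG1 was 0.49 with GC and length offsets and that of SMG5 -0.27 with total counts as library sizes. In SU-DHL6 3 decay genes fell with total counts, where 14.4% of all genes did, and 3 without the third untreated library. Medians were -0.62 and 0.07 for the import receptors and -0.18 and -0.06 for the decay genes.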

How the data were processed

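The authors deposited 1 table with a read count and an FPKM value per gene for 12 libraries, per the file headers; all its value columns were matched to libraries by name. Per the labels' protocols, 1.3 µg of RNA entered an mRNA library kit. Aligner, counting program and strandedness were each not given in the sources used here. Mouse builds, GRCm38 and mm10, are what the submitters' processing notes list, whereas 58039 of the 58302 identifiers are human genes of GENCODE release 29 on GRCh38 and 97.5% of these have its coordinates, which are used here. The FPKM that the authors deposited equal the counts scaled by depth and 1 length per gene (within a ratio of 1.000019 for 9162 genes with 50 or more counts). How these lengths were derived is not given. For HNRNPU the length that the FPKM imply is longer than its whole locus of 23923 bases. Ranks of genes by FPKM are therefore uncertain.

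Tests used the deposited counts and edgeR 4.0.16 in R 4.3.3: filterByExpr by group (16474 genes left), TMM scaling, 1 negative binomial model with a coefficient for each of the 4 groups, and robust quasi-likelihood F tests with Benjamini-Hochberg adjustment over all genes tested. Genes were called at an adjusted p under 0.05, and "rose" and "fell" are used of called genes. The SE was taken as the ratio of the log2 fold change to the root of its F statistic. The test was checked on simulated counts. The result for 1 marker gene is not reported here. Alternatives were DESeq2 1.42.0, limma-voom (limma 3.58.1), other size factors, filters and thresholds, each line alone, a replicate block and leaving out each library. Calls lost with the replicate block are not given with each gene but are named together in the last section. Adding pseudogene counts and offsets for GC content and length were chosen after seeing the data. The members and gene lists were chosen with earlier results of these data known. Values in every library are given for genes called in both lines, genes whose responses differed, the 3 with the smallest adjusted p in each direction and line, and 9 set genes; from each list up to 2 called members per direction and line are named.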

Additional observations from a re-analysis of the deposited data

Results flagged for a closer look

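The response to selinexor differed between the lines, by the test of the difference itself, for 16 of the 34 tested genes. The difference was positive for 13 and negative for 3, against 17% and 19.9% of all genes tested. On the log2 scale, SU-DHL6 minus OCI-LY3, the values were 1.16 for HNRNPH2, 0.94 for HNRNPA2B1, 0.89 for HNRNPR, 0.72 for HNRNPM, 0.64 for HNRNPH1 and 0.56 for HNRNPU. They were 0.62 for SRSF1, 0.58 for SRSF2 and 0.55 for SRSF7. HNRNPA3 had 0.51, HNRNPD 0.50, HNRNPH3 0.49 and HNRNPA0 0.48. The negative values were -0.54 for SRSF9, -0.43 for HNRNPL and -0.39 for HNRNPUL1. Of these 16, only HNRNPA2B1, HNRNPH2, HNRNPM, SRSF1 and SRSF7 kept the call in every alternative with a threshold of 0.05. With GC and length offsets HNRNPA0 had 0.0149, HNRNPA3 0.0146, HNRNPD -0.0105, HNRNPH1 0.12 and HNRNPU -0.12, with no call. The median difference over the 34 genes was 0.29, but 0.024 with these offsets and 0.67 with total counts as library sizes. Over all genes tested it was -0.02, -0.01 and 0.35. Dose and time may differ between the lines, so the line and these conditions cannot be told apart.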

How the results depend on the processing

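Of 34 genes, 13 kept their OCI-LY3 call and 11 their SU-DHL6 call in every alternative with a threshold of 0.05, as did 5 differences and 13 comparisons of the untreated lines. Genes higher in OCI-LY3 numbered 2, but 1 at an adjusted p under 0.01, 1 with total counts, 4 with DESeq2, 1 with no filter, 6 with GC and length offsets and 1 to 2 when leaving out 1 library. Genes lower in SU-DHL6 numbered 8, but 4 with total counts, 12 with GC and length offsets and 4 to 8 when leaving out 1 library (4 without the third untreated SU-DHL6 library). Genes higher in SU-DHL6 numbered 12, but 18 with total counts, 9 with GC and length offsets and 9 to 13 when leaving out 1 library. The larger direction in SU-DHL6 thus changed with the offsets. Positive differences numbered 13, but 6 at 0.01, 23 with total counts, 7 with GC and length offsets and 8 to 16 when leaving out 1 library (8 without the first untreated OCI-LY3 or the second untreated SU-DHL6 library). Negative differences numbered 3, but 0 at 0.01, 0 with total counts (0 at an unadjusted p under 0.05), 0 with the replicate block (3 unadjusted) and 0 to 3 when leaving out 1 library (0 without the third untreated SU-DHL6 library, 3 unadjusted; 1 without the first untreated or first treated OCI-LY3 library). Genes lower in untreated SU-DHL6 numbered 8, but 5 at 0.01 and 7 to 8 when leaving out 1 library. The other counts ranged from 14 to 15 (lower in OCI-LY3) and 8 to 13 (higher in untreated SU-DHL6) when leaving out 1 library. Values that changed sign with a call in either fit were, with GC and length offsets, HNRNPA3 in OCI-LY3 (0.17), HNRNPR (-0.0606) and HNRNPU (-0.0883) in SU-DHL6, and the differences of HNRNPD (-0.0105) and HNRNPU (-0.12); with total counts they were SRSF7 in SU-DHL6 (0.26, adjusted p = 0.0372) and the difference of HNRNPF (0.29, adjusted p = 0.0447). The cause was not tested. With the replicate number as a block, 2 genes rose and 14 fell in OCI-LY3, and 10 rose and 7 fell in SU-DHL6. The block ended the calls of HNRNPA1, HNRNPUL2, SRSF6 and SRSF10 in OCI-LY3 and of HNRNPA1, HNRNPH3 and SRSF11 in SU-DHL6. It also ended those of the differences of HNRNPA3, HNRNPD, HNRNPH3, HNRNPL, HNRNPUL1 and SRSF9. In the fit with the block 10 differences were positive and 0 negative, and HNRNPUL2-BSCL2 was called higher in OCI-LY3 (1.11, adjusted p = 0.00679). Deviations of same-numbered libraries correlated at -0.15 to 0.05, and those of differently numbered ones at -0.12 to 0.13. With 3 libraries per group these values cannot decide whether the numbers pair the libraries, which the labels do not state. The block was set within each line, so it could not be fitted for the comparison of the untreated lines. Low counts limit HNRNPLL in SU-DHL6, at 0.810 to 1.51 CPM. HNRNPA1L2 and HNRNPUL2-BSCL2 varied between libraries of a group by ratios of up to 11.93 and 5.214, and the cause was not tested.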
